A study of Mus musculus with 14 samples.

Results

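Clonal pluripotent lines derived from mouse germline stem cells were compared with germline stem cell lines of the same OG2 background, gene by gene, on expression arrays. Probes were taken where the detection p-value was under 0.01 on at least 2 of the 6 arrays, which kept 12309 of 25697 probes, for 8514 of 16593 named genes. The 6 arrays were 3 of germline stem cells (GSC OG2, lines 1, 2 and 3) and 3 of germline-derived pluripotent stem cells (gPS OG2, lines 1, 2 and 3), among 14 arrays of the study. The other 8 were GSC and gPS lines of a second background, OG2-ROSA (3 each), and embryonic stem cells (ESC, 2 arrays). All OG2 lines were labelled C57BL6 and carried an Oct4-GFP transgene, which both groups share, while the OG2-ROSA lines were a C57BL6 x 129sv cross with Oct4-GFP and LacZ transgenes and the ESC were C57BL6. The series calls the gPS lines clonal, so each is the outcome of 1 selected clone. The labels do not say which GSC line a gPS line came from, so equal line numbers were not treated as pairs. The array columns name a replicate 1 where the sample titles of the OG2 and ESC arrays name a replicate 2, so columns were matched to samples by cell type and line number. Age of the animals, passage number and feeder cells are not given in the sources used here.

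Germline stem cells are the self-renewing progenitors of spermatogenesis. They depend on GDNF, which signals through the receptor Ret and its co-receptor Gfra1, and they are committed to making sperm, although they share some regulators with pluripotent cells. Pluripotent stem cells, which can form all tissues of the body, are held by a network of transcription factors around Pou5f1 (the Oct4 gene), Sox2, Nanog, Esrrb and the Klf factors, under the influence of LIF, FGF and Nodal signals. Many genes of germ cells, among them those of the piRNA pathway, of meiosis and of X-linked gene families, are silent in most other cells.

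Values are log2 intensities after background correction and quantile normalization. A change is the gPS mean minus the GSC mean, with 3 arrays a group, and it is called where the limma p-value, adjusted over all 12309 probes, is under 0.05. Where no array of a group detected a probe, only a lower bound of its fold can be given, written as at least N-fold. Triplets of values run over lines 1, 2 and 3, with GSC before gPS where neither is named. The mean raw signal of an array ran from 626 to 639.5 in GSC and from 513 to 561 in gPS (634 ± 7.33 and 540.3 ± 24.4, SD over 3 lines each), a difference at which the two-sided exact permutation test gave p = 0.1, the smallest that 20 splits allow. The GSC arrays detected more probes than the gPS arrays (11565 ± 67.0 and 10058 ± 253, SD over 3 lines each, with the same exact p of 0.1), and the lowest normalized signal of a detected probe was 5.50 to 5.54 on GSC and 5.92 to 6.10 on gPS arrays. Probes just inside the filter, detected on exactly 2 of the 6 arrays, numbered 820 with a median log2 intensity of 5.49, and those just outside it, detected on 1, numbered 1213 with a median of 5.25. Whether the lines came from separate animals is not stated, so the p-values measure spread between lines. For limma this spread was pooled over all groups of the study, with the OG2-ROSA lines and the ESC arrays included. It is therefore not the spread of the compared lines alone.

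A little over 1 probe in 2 differed between the groups. Limma called 6358 of 12309 probes (51.7%), with 2965 higher (24.1%) and 3393 lower (27.6%) in gPS, and these belonged to 4749 genes. At least 2-fold changes numbered 1924 higher (15.6%) and 2192 lower (17.8%), at least 16-fold 73 and 91, and at least 64-fold 9 and 19. All 3 gPS arrays lay above all 3 GSC arrays for 29.4% of the probes and below them for 32% of the probes. Of the 421 probes detected on no GSC array, 405 were called higher, and of the 1540 detected on no gPS array, 1092 were called lower, a direction the filter itself favours. Among the 8400 probes detected on all 6 arrays, where both ends were measured, 2192 rose and 1853 fell. With arrays scaled by their medians, the median change of all probes moved from -0.03 to -0.22 and the higher share of the calls from 46.6% to 36.5%. With that scaling taken over the probes detected on all 14 arrays, a setting added after seeing the data, the share was 46.4%.

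**Figure D1:**
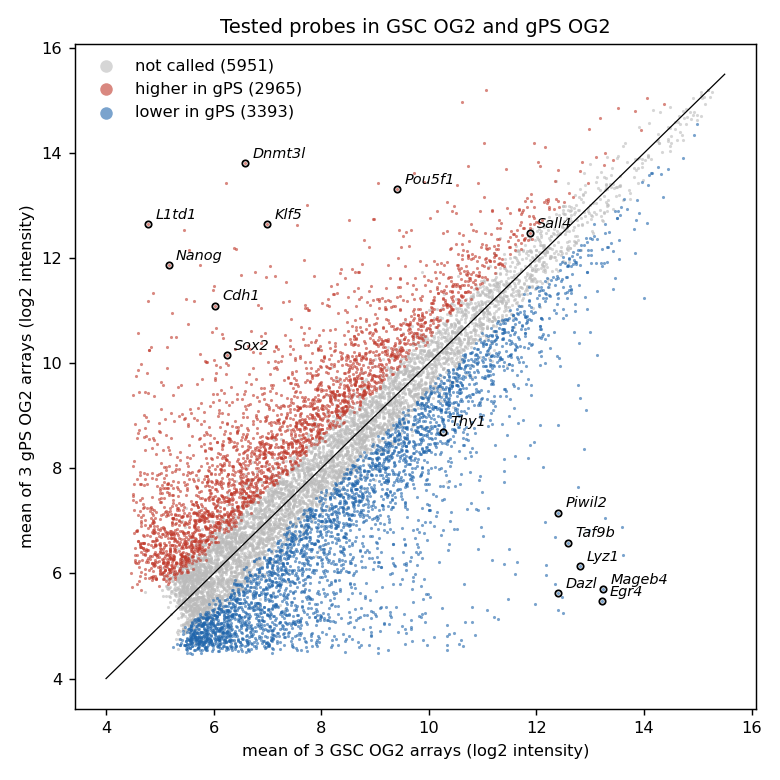
Mean log2 intensity of the 3 gPS OG2 arrays (vertical) against that of the 3 GSC OG2 arrays (horizontal), 1 point for each of the 12309 tested probes; red points are the 2965 called higher in gPS, blue the 3393 called lower, grey those not called, and the line marks equal levels. Dnmt3l, L1td1 and Nanog stand far above the line, Egr4, Mageb4 and Dazl far below it, while Sall4 lies close to it.

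The largest increases included many genes of the pluripotent state, and several had no detectable signal in any GSC line. L1td1, an RNA-binding protein of pluripotent cells derived from a transposon open reading frame, read 4.89, 4.66 and 4.80 in GSC lines 1, 2 and 3 and 12.68, 12.63 and 12.62 in gPS lines 1, 2 and 3. It was detected on no GSC array and was at least 139-fold higher in gPS (limma adjusted p = 1.35e-10). The homeodomain factor Nanog read 5.36, 5.07 and 5.06 in GSC and 11.78, 11.90 and 11.90 in gPS, at least 81.3-fold higher. For both genes the gPS lines lay close together and far from every GSC line. Dnmt3l, the cofactor of the de novo DNA methyltransferases, read 5.55, 6.89 and 7.31 in GSC, detected on all 3 arrays, and 14.24, 13.40 and 13.79 in gPS, a rise of 7.23 (SE 0.42, limma adjusted p = 2.95e-08). Trh, the thyrotropin-releasing hormone precursor, read 5.12, 5.62 and 5.61 in GSC and 11.75, 12.89 and 12.97 in gPS, a change of 7.09 (SE 0.29).

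The remaining genes among the 12 largest increases were Mylpf (6.60, a myosin light chain), Lefty2, Gdf3 (6.13), Gtsf1l, Slc7a3 (5.78, a transporter of basic amino acids), Lefty1 (5.73), Cldn4 and Klf5 (5.65, a transcription factor). No GSC array detected Lefty2, Gtsf1l or Cldn4, for which the lower bounds of the rise were 56.4-fold, 33.5-fold and 43.2-fold. The ESC means of these 12 genes lay between 11.03 and 13.68, in the range of the gPS arrays (10.37 to 14.24) and above every GSC value (4.48 to 7.69). Their limma adjusted p values ran from 1.35e-10 to 6.39e-06. Among genes detected on all 6 arrays, where the size of a change is measured at both ends, Dnmt3l, Slc7a3 and Klf5 were followed by Gbx2 (5.46), a homeodomain factor, Ooep (5.28), a protein of the oocyte's subcortical complex, the fatty acid binding protein Fabp3 (5.16), the nuclear receptor Esrrb (5.08) and E-cadherin, Cdh1 (5.06).

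The largest decreases included many germ cell genes. The zinc finger factor Egr4, required for male fertility in mice, read 13.48, 12.97 and 13.22 in GSC lines 1, 2 and 3 and 6.36, 4.55 and 5.51 in gPS lines 1, 2 and 3, a change of -7.75 (SE 0.54, limma adjusted p = 1.69e-07). Mageb4, an X-linked member of the MAGE family, read 13.41, 13.68 and 12.61 in GSC and 4.91, 6.45 and 5.75 in gPS. Sohlh1, a helix-loop-helix factor of spermatogonia and oocytes, read 13.0, 12.62 and 11.85 and 5.85, 5.04 and 4.84, and was at least 90.3-fold lower. In each of these the groups stood apart by more than 5 log2 units in every pair of lines. Dazl, the germ cell RNA-binding protein, read 12.46, 12.34 and 12.41 in GSC and 6.85, 5.02 and 5.0 in gPS, with line 1 above the other gPS lines. Tuba3a, a testis alpha-tubulin, read 13.60, 13.35 and 13.91 in GSC and 9.09, 4.87 and 5.09 in gPS, again with line 1 highest.

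Taf7l (-7.09), a germ cell relative of a general transcription factor subunit, Xlr4a (-6.21) and Ifi27 (-6.20), an interferon-inducible gene, also stood among the 12 largest decreases. So did Tdrkh, a Tudor protein of the piRNA pathway (at least 37.1-fold lower), and Tex11, an X-linked meiosis gene (at least 29.1-fold). The lysozyme genes Lyz1 (-6.66) and Lyz2 (at least 39.2-fold), both in the list of macrophage and blood markers used below, were there too. The ESC means of these 12 genes were 4.75 to 7.16, against 9.30 to 14.16 over the GSC arrays. Tuba3a, Xlr4a, Lyz1 and Lyz2 have near-identical relatives, and signal from a relative cannot be told apart here. Among genes detected on all 6 arrays the decreases were led by Taf9b (-6.0), an X-linked relative of another general transcription factor subunit, and Piwil2 (-5.25), a Piwi protein that binds piRNAs. Tsc22d3 (-5.18, a glucocorticoid-induced regulator), Dbndd2 (-5.13), a second Tuba3a probe (-4.52), Dapk2 (-3.97, a kinase), Tex14 (-3.86, needed for the bridges between germ cells) and the RNA helicase Ddx25 (-3.81) followed.

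**Figure D2:**
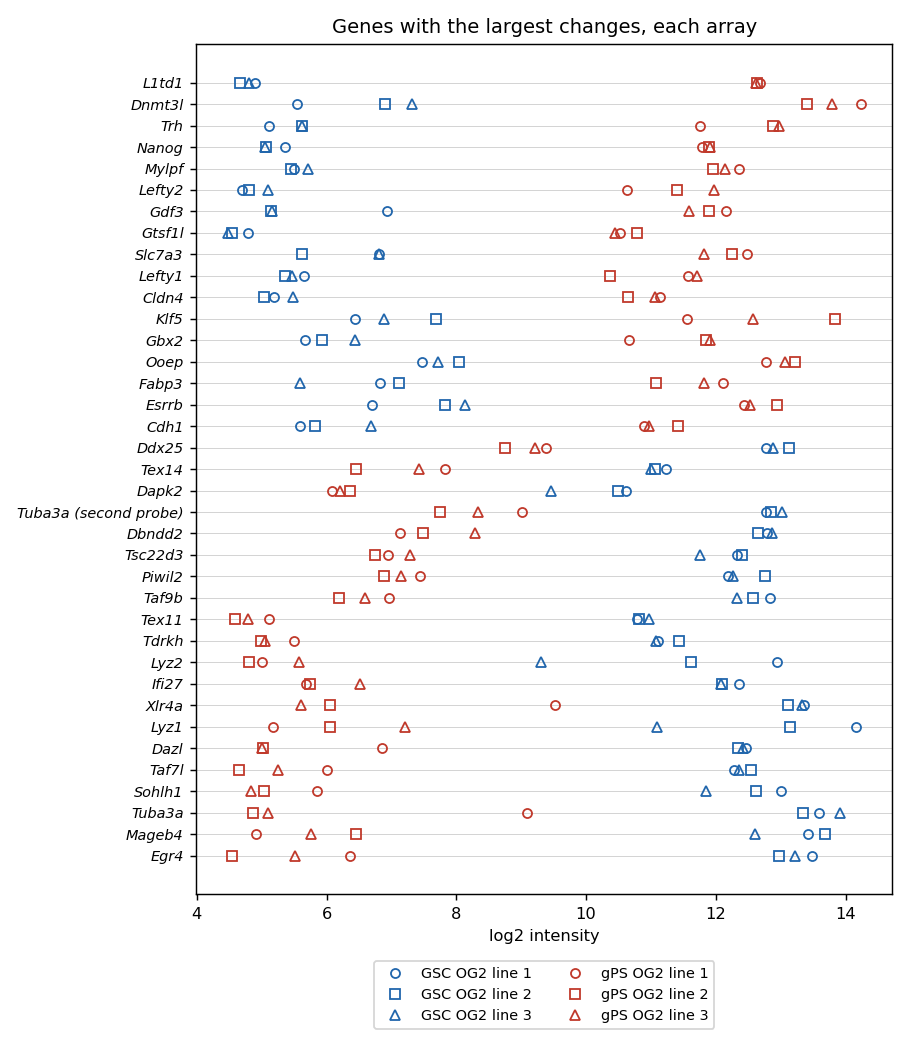
Log2 intensity (horizontal) on each of the 6 arrays for the genes with the largest changes, ordered by change; blue symbols are GSC OG2 and red symbols gPS OG2, with circle, square and triangle for lines 1, 2 and 3. The groups stand apart in every row because only genes without overlap between the groups were selected. In Tuba3a, Xlr4a and Dazl the gPS line 1 circle lies to the right of the other gPS lines.

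The promoters of the leading genes are shown because loss and gain of CpG methylation at such windows is a known mode of control of germ cell genes, although methylation was not measured here. Each runs from 250 bases before to 50 after the RefSeq start of the gene, on the gene's own strand, in build GRCm38.p6, with CpG dinucleotides in capitals. The windows lie at chr4:98726504-98726803 for L1td1 (plus strand), chr10:78042037-78042336 for Dnmt3l (plus), chr6:92244601-92244900 for Trh (minus), chr6:85513540-85513839 for Egr4 (minus), chrX:86256170-86256469 for Mageb4 (minus) and chr6:125286032-125286331 for Tuba3a (minus). Dnmt3l has 3 starts in the table, of which the first listed is shown.
L1td1: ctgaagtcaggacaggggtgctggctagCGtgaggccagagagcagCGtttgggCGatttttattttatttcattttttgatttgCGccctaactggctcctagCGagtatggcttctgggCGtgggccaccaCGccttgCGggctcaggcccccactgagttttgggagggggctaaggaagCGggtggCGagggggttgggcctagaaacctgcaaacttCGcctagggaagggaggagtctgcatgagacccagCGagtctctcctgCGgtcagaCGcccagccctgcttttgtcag
Dnmt3l: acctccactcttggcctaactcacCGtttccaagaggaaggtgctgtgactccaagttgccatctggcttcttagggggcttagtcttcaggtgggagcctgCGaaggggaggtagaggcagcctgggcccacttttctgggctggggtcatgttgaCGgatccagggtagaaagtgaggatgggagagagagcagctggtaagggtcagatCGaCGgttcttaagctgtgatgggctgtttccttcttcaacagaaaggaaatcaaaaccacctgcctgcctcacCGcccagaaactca
Trh: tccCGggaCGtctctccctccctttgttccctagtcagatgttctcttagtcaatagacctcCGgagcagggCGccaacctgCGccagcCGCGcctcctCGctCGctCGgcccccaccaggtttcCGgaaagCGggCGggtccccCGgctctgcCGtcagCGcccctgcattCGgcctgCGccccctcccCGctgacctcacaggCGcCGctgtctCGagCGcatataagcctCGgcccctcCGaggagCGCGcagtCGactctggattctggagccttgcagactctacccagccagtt
Egr4: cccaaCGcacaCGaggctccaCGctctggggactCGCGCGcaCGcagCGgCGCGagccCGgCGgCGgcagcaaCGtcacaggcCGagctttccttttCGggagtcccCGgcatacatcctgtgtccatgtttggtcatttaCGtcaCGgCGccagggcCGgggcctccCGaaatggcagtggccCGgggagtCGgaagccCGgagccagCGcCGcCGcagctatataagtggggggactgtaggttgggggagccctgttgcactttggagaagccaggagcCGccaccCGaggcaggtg
Mageb4: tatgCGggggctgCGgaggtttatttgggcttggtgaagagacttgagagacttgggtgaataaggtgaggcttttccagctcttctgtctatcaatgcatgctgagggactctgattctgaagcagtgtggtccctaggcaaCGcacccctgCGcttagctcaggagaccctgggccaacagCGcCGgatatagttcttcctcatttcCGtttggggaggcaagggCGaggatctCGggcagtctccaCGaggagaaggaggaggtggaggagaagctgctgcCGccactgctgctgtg
Tuba3a: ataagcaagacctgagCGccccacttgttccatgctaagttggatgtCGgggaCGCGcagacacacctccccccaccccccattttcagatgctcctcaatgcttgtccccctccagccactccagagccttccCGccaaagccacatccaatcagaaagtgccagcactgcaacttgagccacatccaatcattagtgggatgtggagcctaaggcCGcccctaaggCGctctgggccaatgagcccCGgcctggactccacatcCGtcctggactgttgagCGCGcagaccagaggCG
CpG number did not follow the direction of change. Trh, which was higher in gPS, and Egr4, which was lower, held 28 and 30 CpG, L1td1 and Tuba3a 14 and 12, and Dnmt3l and Mageb4 6 and 11. Over genes called at 4-fold or more, the median was 18 CpG in the 327 promoters of higher genes and 17 in the 399 of lower genes, against 21 in the 6951 promoters of tested genes and 7 over all 27025.

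A search of both strands of these windows covered 4 motifs, the octamer bound by POU factors (ATGCAAAT), the E-box (CACGTG), the E2F site (GGCGGGAA) and the CRE (TGACGTCA). Of the 6 promoters shown, only that of Tuba3a held a match, 1 E2F site. Over the higher genes 2.75% held the octamer (9 of 327), against 1.25% of the lower genes (5 of 399), 1.45% of tested genes and 1.75% of all promoters. These are few promoters, and the difference was not tested. The E-box was held by 8.56% and 12.3% of the higher and lower genes (10.7% of tested genes, 7.24% of all), the E2F site by 2.75% and 4.51% (4.2% and 2.24%), and the CRE by 2.45% and 2.51% (3.29% and 1.88%). These matches are letters in a window, not bound sites.

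Pluripotency factors were higher as a group. Of 26 tested members 23 rose, 0 fell and 3 were not called, with a median change of 3.61 against -0.03 over all tested probes, and 6 of the 26 were detected on no GSC array. Their direction was known when the list was chosen. Nanog was detected on every gPS and no GSC array, and Dazl on every GSC array and 1 gPS array (line 1). Pou5f1, the core POU factor, was already present in GSC but unevenly, at 12.04, 9.27 and 6.94 in lines 1, 2 and 3, and read 13.11, 13.53 and 13.31 in gPS (change 3.90, SE 0.84, limma adjusted p = 0.00175). Sox2, its partner, read 8.48, 4.59 and 5.66 in GSC and 10.20, 10.10 and 10.15 in gPS (change 3.91, limma adjusted p = 0.0108). The gPS lines were tight for both genes and the GSC lines were not, GSC line 1 being highest in each. Without GSC line 2 the Sox2 change was 3.08 and not called (limma adjusted p = 0.0543). In such bulk samples, more RNA per cell and more cells that express a gene cannot be told apart.

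Esrrb (6.69, 7.83 and 8.13 in GSC, 12.43, 12.94 and 12.52 in gPS) and Klf5 (6.44, 7.69 and 6.88, 11.55, 13.83 and 12.57) were detected in every GSC line and rose by more than 5 log2 units. Zfp42, the Rex1 gene, read 7.39, 7.13 and 6.79 in GSC and 8.98, 10.17 and 9.62 in gPS (change 2.49). Dppa3, a maternal factor shared with primordial germ cells, read 8.63, 7.79 and 6.78 and 11.87, 10.26 and 11.02 (change 3.32), and was not called without GSC line 3 (2.84, limma adjusted p = 0.0640) or gPS line 1 (2.91, adjusted p = 0.0604). These 4 genes differed between lines of a group by up to 2.3 log2 units, less than their changes. Utf1 (5.40), Eras (at least 16.8-fold higher), Zscan10 (at least 14.6-fold higher), Klf2 (4.97), Dppa5a (4.12) and Tbx3 (3.12) rose too.

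Some regulators shared by germline and pluripotent cells differed little. Sall4 read 12.07, 11.93 and 11.64 in GSC and 12.40, 12.51 and 12.53 in gPS, a rise of only 0.60 (limma adjusted p = 0.00809). Klf4 read 8.42, 8.51 and 8.89 and 9.80, 9.57 and 9.72 (change 1.09), and leaving out any 1 of the lines except GSC line 3 ended its call (limma adjusted p from 0.0627 to 0.104), as did median scaling (adjusted p = 0.0948) and testing with no probe filter (adjusted p = 0.0837). Lin28a, which blocks let-7 maturation, read 9.89, 10.30 and 9.90 and 11.03, 10.99 and 11.03, groups that did not overlap, but its change of 0.99 was not called (95% interval 0.05 to 1.92, limma adjusted p = 0.0734). It was called with only the 6 arrays in the fit (adjusted p = 0.00343). Myc was undetected in all GSC lines and detected in 2 gPS lines, at least 1.67-fold higher.

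Spermatogonial regulators mostly fell: 19 of 28 tested members were lower, 5 higher and 4 not called (median -1.89). Ret read 9.88, 9.17 and 10.72 in GSC and 5.19, 4.87 and 5.17 in gPS and was at least 15.2-fold lower, whereas its co-receptor Gfra1 lay near the detection limit in both groups (5.33, 5.24 and 6.33 and 5.61, 5.58 and 5.99, change 0.10, 95% interval -0.64 to 0.83). Uchl1, an undifferentiated spermatogonia marker, read 11.83, 12.51 and 11.52 in GSC and 9.05, 7.84 and 8.64 in gPS (change -3.44). The germ cell helicase Ddx4 was at least 15.9-fold lower. Nanos3, which protects primordial germ cells, read 9.07, 8.80 and 7.80 and 6.68, 6.55 and 7.79, the third gPS line falling just below the third GSC line.

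Stra8, a retinoic acid target at the entry to meiosis, read 9.32, 10.29 and 7.25 in GSC and 7.22, 4.80 and 6.27 in gPS (change -2.86, limma adjusted p = 0.00489), so GSC line 3 and gPS line 1 nearly met. Bcl6b, a GDNF target, was detected on no gPS array and at least 2.73-fold lower, with fitted changes of -1.98 and, without GSC line 3, -1.30. Foxo1 (-1.65) and Id4 (-1.69), factors of spermatogonial self-renewal, fell as well. The 5 members that rose were Tfap2c (3.21), Upp1 (2.53), Etv5 (2.51), Sall1 (1.80) and Rarg (0.71). Etv5, an ETS factor that spermatogonial stem cells need, read 6.44, 5.25 and 7.96 in GSC and 8.96, 9.07 and 9.15 in gPS, and is also a target of FGF signalling.

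The piRNA pathway, a small RNA system that silences transposons in the germline, showed a near-uniform fall: 13 of 15 tested members were lower, 1 higher and 1 not called (median -3.44), and 8 of the 15 were detected on no gPS array. The mitochondrial-surface protein Asz1 read 11.20, 11.21 and 12.02 in GSC and 6.44, 5.14 and 4.94 in gPS. Mov10l1, the helicase that feeds piRNA precursors, was at least 20.9-fold lower, and Piwil2 read 12.19, 12.76 and 12.27 and 7.44, 6.89 and 7.15, still detected in every gPS line. Gtsf1l, a paralog of the piRNA factor Gtsf1, was the member that rose, reading 4.78, 4.55 and 4.48 and 10.53, 10.78 and 10.44. Of 15 tested members of the meiotic list 11 fell, 1 rose (Mnd1, 1.02) and 3 were not called (median -1.62). The cohesin subunits Smc1b (11.19, 10.56 and 11.52 in GSC, 6.43, 4.66 and 4.83 in gPS) and Stag3 (11.88, 11.71 and 11.33, 7.08, 5.50 and 6.07) had the largest changes beside Tex11. Tex101, a surface protein that the list also held, came next (at least 12.8-fold lower). A further 7 meiotic genes, Sycp3 and Dmc1 among them, did not reach the detection filter in these 6 arrays.

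**Figure D3:**
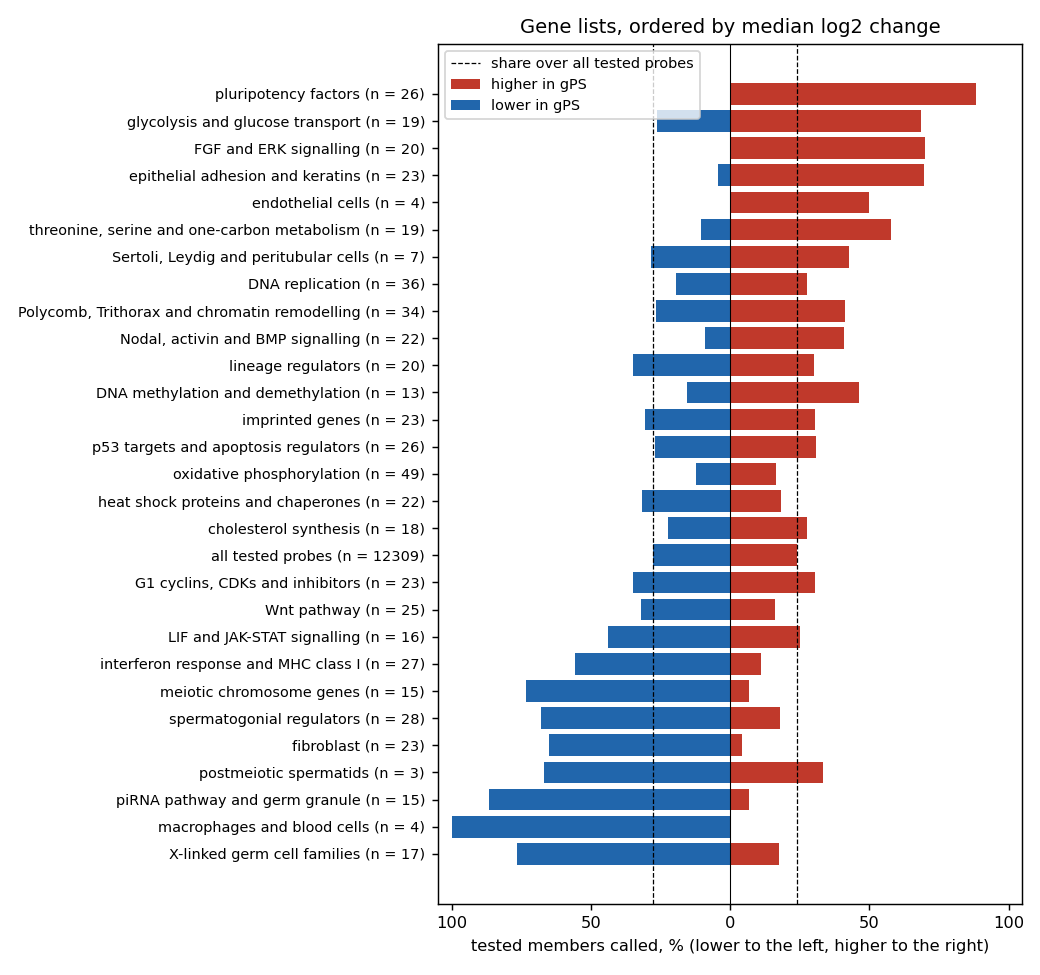
Share of the tested members of each gene list called higher (red, to the right) or lower (blue, to the left) in gPS OG2, in percent, with n the number tested and lists ordered by median log2 change. Dashed lines mark the shares over all 12309 probes (24.1% higher and 27.6% lower). Pluripotency factors stand at the top, and the X-linked germ cell families, macrophage and piRNA lists at the bottom.

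X-linked genes took part in both directions. Of 384 tested X-linked probes 107 rose and 120 fell, 59.1% in all, where the autosomes ranged from 46.9% to 57.8%. Calls of 4-fold or more lower made up 12.0% of X-linked probes (46 of 384). That share was 5.20% over all tested probes and 2.26% to 7.05% over the 19 autosomes. Those 4-fold or more higher made up 5.99%, against 4.68% over all. Of 45 X-linked probes 4-fold or more lower and detected on all 3 GSC arrays, 29 were detected on no gPS array. Over all tested probes this was 286 of 623. Such probes passed the filter only through the GSC arrays, and no share was taken without them. In the list of X-linked germ cell families 13 of 17 tested members fell, 3 rose and 1 was not called (median -4.47), and 11 were detected on no gPS array. Beside Mageb4, Taf7l, Xlr4a and Tex11, the homeobox gene Rhox10 read 10.07, 11.16 and 10.68 in GSC and 4.84, 4.51 and 4.51 in gPS and was at least 25-fold lower.

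The members that rose were the homeobox genes Rhox5 (5.18), Rhox9 (3.49) and Rhox6 (at least 3.3-fold higher), so genes of the Rhox cluster went opposite ways. Slc7a3 read 6.80, 5.61 and 6.81 in GSC and 12.48, 12.25 and 11.81 in gPS. Eras, a Ras-like gene of embryonic stem cells, and Pcyt1b, of phosphatidylcholine synthesis, were at least 16.8-fold and 9.21-fold higher. Of 5 tested Y-linked probes 4 were lower. Usp9y read 9.04, 9.06 and 9.61 in GSC and 4.51, 4.56 and 4.54 in gPS, undetected in every gPS line, whereas Eif2s3y read 10.16, 10.12 and 10.51 and 10.34, 6.87 and 5.79, with gPS line 1 at the GSC level (change -2.60, limma adjusted p = 0.0485). Kdm5d likewise was detected on gPS line 1 alone (6.48, 4.58 and 4.70), and Uty was not called (5.70, 6.33 and 6.61 in GSC and 6.60, 6.34 and 6.06 in gPS).

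**Figure D4:**
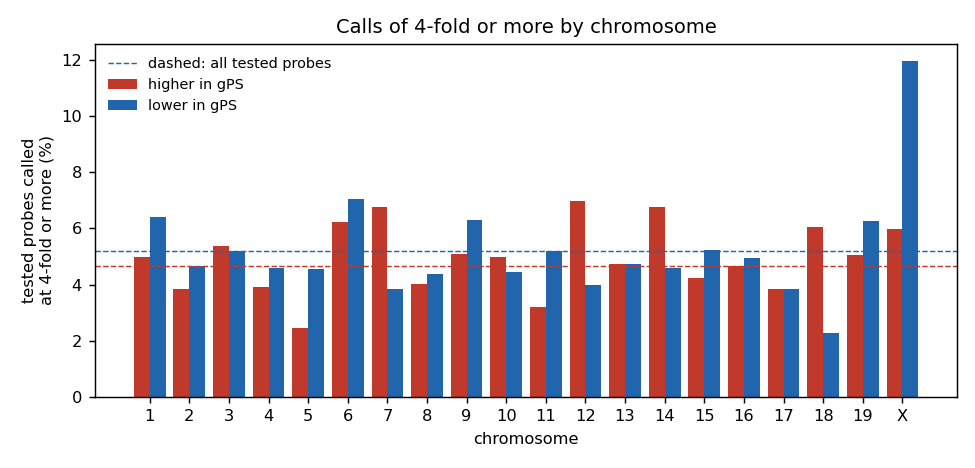
Percentage of tested probes on each chromosome (the Y, with 5 probes, is left out) called at 4-fold or more higher (red) or lower (blue) in gPS OG2; dashed lines give the shares over all tested probes, 4.68% and 5.20%. The X chromosome has 12.0% lower, where the 19 autosomes have 2.26% to 7.05%. Probes that passed the filter only through the GSC arrays are included.

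Several signalling ligands were far higher in gPS. In the Nodal, activin and BMP list 9 of 22 tested members rose, 2 fell (Furin and Smad3) and 11 were not called (median 0.38). The share called was 50%, beside 51.7% over all tested probes. The Nodal antagonists Lefty1 (5.65, 5.36 and 5.46 in GSC, 11.57, 10.37 and 11.71 in gPS) and Lefty2 (4.70, 4.81 and 5.10, 10.63, 11.39 and 11.98), the ligand Gdf3 (6.94, 5.14 and 5.16, 12.15, 11.90 and 11.58) and the co-receptor Tdgf1 (at least 9.97-fold higher) led, with Bmp4 (3.92) and Nodal (at least 8.48-fold higher) behind them. The intracellular Smad1, Smad2, Smad4 and Smad5 were not called, at 0.52, -0.35, 0.24 and -0.74. Of 20 FGF and ERK genes 14 rose, 0 fell and 6 were not called (median 1.53). Fgf17 was at least 19.7-fold and Fgf4 at least 5.25-fold higher, both detected on no GSC array, and the ERK phosphatase Dusp4 read 5.16, 4.60 and 5.86 in GSC and 9.75, 8.72 and 8.69 in gPS. Targets of the pathway, Etv4 (2.36), Spry4 (1.80) and Dusp6 (1.40), rose, and the receptor Fgfr1 was not called (-0.45).

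LIF and JAK-STAT genes split, with 4 higher, 7 lower and 5 not called of 16 (median -0.27). The share called was 68.8%, beside 51.7% over all probes. Socs2, an inhibitor of cytokine signalling, read 6.49, 7.52 and 7.14 in GSC and 12.01, 11.99 and 11.57 in gPS (change 4.81). Jak2 was at least 7.57-fold lower, Jak1 changed by -2.31, and Stat3, the transducer of LIF, read 11.57, 11.26 and 11.68 in GSC and 9.21, 9.56 and 9.20 in gPS (change -2.18). Of 25 Wnt pathway genes 4 rose, 8 fell and 13 were not called (48% called, beside 51.7% over all probes, median -0.25). The repressor Tcf7l1 rose by 3.10 and the receptor Fzd7 by 2.53, the receptor Fzd3 was at least 6.22-fold lower, and the antagonist Dkk3 fell with a change of -2.94. Wnt7b was at least 3.32-fold higher, a call lost without gPS line 3 (limma adjusted p = 0.0510).

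Epithelial genes were higher: 16 of 23 tested members rose, 1 fell (Ocln, at least 1.2-fold lower) and 6 were not called (median 1.52). Cdh1, the adhesion protein of epithelial and pluripotent cells, read 5.60, 5.82 and 6.68 in GSC and 10.90, 11.42 and 10.98 in gPS. The rise was at least 43.2-fold for the tight junction claudin Cldn4, 27.8-fold for Cldn6 and 26.7-fold for the keratin Krt42, and the simple-epithelium keratins Krt8 (2.93) and Krt18 (1.54) rose. Itga6, an integrin used to enrich spermatogonial stem cells, rose by 1.37, while Thy1, another such surface marker that fibroblasts also carry, read 10.25, 10.12 and 10.42 in GSC and 7.84, 9.27 and 8.99 in gPS and was not called (change -1.56, 95% interval -3.19 to 0.07, limma adjusted p = 0.1). With only the 6 arrays in the fit Thy1 was called (adjusted p = 0.00824).

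Within families of chromatin regulators, members went both ways. Of 34 tested Polycomb, Trithorax and remodelling genes 14 rose, 9 fell and 11 were not called (median 0.38). The share called was 67.6%, beside 51.7% over all tested probes. The Polycomb repressive complex 1 genes Cbx8 (at least 6.01-fold lower), Bmi1 (at least 3.97-fold lower), Cbx2 (-2.01) and Phc2 (-1.64) fell, while Cbx7 (2.01), Pcgf6 (0.87), Pcgf2 (1.11) and Phc1 (0.99) rose. In complex 2, Ezh2 (1.60), Mtf2 (1.61), Eed (0.81) and Suz12 (0.66) rose and Ezh1 fell (at least 1.18-fold lower). Of the H3K27 demethylases Kdm6a rose (1.94) and Kdm6b fell (-1.02). The H3K9 demethylase Kdm4c read 5.85, 5.83 and 5.42 in GSC and 10.03, 9.30 and 9.49 in gPS (change 3.91), and the remodeller Chd1 read 5.76, 5.62 and 5.82 and 8.0, 7.94 and 7.96 (change 2.23). These 2 genes stood at similar levels in each line of a group.

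Of 13 DNA methylation genes 6 rose, 2 fell and 5 were not called (61.5% called, beside 51.7% over all probes, median 0.26). The base excision enzyme Tdg read 6.24, 6.32 and 6.36 in GSC and 8.37, 8.50 and 8.80 in gPS, Dnmt3b rose by 1.37, Dnmt1 fell with a change of -0.65, and Uhrf1 was not called (0.05). Imprinted genes split evenly, 7 up, 7 down and 9 not called of 23 (60.9% called, beside 51.7% over all probes). Their median changed sign with the scaling (0.20 as reported, -0.13 with median scaling). Snrpn, a paternally expressed splicing protein gene, read 9.14, 9.21 and 8.80 in GSC and 13.74, 13.24 and 13.32 in gPS (change 4.38), and Ddc rose by 3.64. Dlk1, a paternally expressed growth regulator, was at least 20.3-fold lower, and Igf2 changed by -2.75. Dcn, imprinted in the placenta and abundant in fibroblasts, read 12.04, 13.55 and 11.43 in GSC and 5.15, 7.54 and 7.40 in gPS, and the fibroblast markers described below were lower in gPS too.

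Glycolytic genes were higher: 13 of 19 rose, 5 fell and 1 was not called (median 1.79), 17 of the 19 being detected on all 6 arrays. The phosphofructokinase Pfkl read 8.76, 9.46 and 8.46 in GSC and 12.53, 12.12 and 11.98 in gPS (change 3.32), the glucose transporter Slc2a3 rose by 3.03, Pfkp by 2.90 and the lactate dehydrogenase Ldha by 2.88. The 5 that fell were Ldhc (the testis lactate dehydrogenase), Pdk3, Aldoc, Hk1 and the muscle-type Pfkm, so hexokinase and phosphofructokinase each had isoforms going both ways (Hk2 2.73, Hk1 -0.75, Pfkm -0.74). Of 49 oxidative phosphorylation genes 8 rose and 6 fell (28.6% called, beside 51.7% over all probes, median 0.09). That balance moved with the scaling. With median scaling 10 rose and 3 fell, and 15 rose and 3 fell when it was taken over the probes detected on all 14 arrays. The exception in size was Cox8c, a testis form of a cytochrome oxidase subunit, which read 9.38, 10.02 and 10.22 in GSC and 5.59, 4.67 and 5.41 in gPS and was at least 14.7-fold lower.

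Amino acid and one-carbon genes rose in 11 of 19 cases, fell in 2 and were not called in 6 (median 1.17). The branched-chain aminotransferases Bcat1 (5.29, 5.26 and 6.34 in GSC, 10.87, 11.29 and 11.41 in gPS) and Bcat2 (5.81, 6.14 and 6.11, 9.80, 9.71 and 9.53) rose together with Mthfd1 (2.89), Gldc (2.19) and Odc1 (2.53), whereas the glycine transporter Slc6a9 changed by -3.01. Phgdh and Psat1, of serine synthesis, were not called (0.26 and 0.56). G1 cell cycle genes split, 7 up and 8 down of 23 (65.2% called, beside 51.7% over all probes). With median scaling 4 were up and 8 down. Ccne1, which drives entry into S phase, read 6.40, 6.38 and 6.44 in GSC and 10.60, 9.84 and 10.35 in gPS, and Ccnd2, the D-type cyclin of spermatogonia, read 10.55, 8.67 and 11.83 and 5.22, 6.85 and 7.25. The inhibitors Cdkn2a (10.94, 11.10 and 10.71 in GSC, 7.17, 6.51 and 7.96 in gPS), Cdkn2b (-1.73), Cdkn1c (-2.20) and Cdkn1a (-0.93) and the retinoblastoma gene Rb1 (-1.83) were lower, while the inhibitor Cdkn2d rose by 0.63. Of 36 DNA replication genes 10 rose, 7 fell and 19 were not called (47.2% called, beside 51.7% over all probes). Their changes ran from -1.23 (Rpa2) to 1.40 (Orc5). With median scaling over the probes detected on all 14 arrays, 13 rose and 4 fell.

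Interferon response and MHC class I genes were lower in 15 of 27 cases, higher in 3 (Ifitm1, Ifitm2 and Ddx58) and not called in 9 (median -1.13). Ifi27 read 12.35, 12.23 and 11.96 in GSC and 5.57, 6.08 and 6.84 in gPS at its brightest probe, Oasl2 read 11.48, 11.02 and 10.50 and 8.15, 5.06 and 6.95, and the GTPase Igtp was at least 6.44-fold lower. The class I light chain B2m changed by -1.68 and the peptide transporter gene Tap2 by -2.60. H2-D1 was called lower but was detected on 2 GSC and no gPS arrays, so no fold is given. Markers of other cell types moved with this result. Of 23 tested fibroblast markers 15 were lower in gPS, 1 was higher (Acta2) and 7 were not called. Their mean log2 intensity was 9.26 to 9.97 on the GSC arrays and 7.12 to 8.11 on the gPS arrays, with Lum and Pdgfra undetected in gPS and Vim not called (-0.07). Of 4 tested macrophage and blood markers 4 were lower, with a mean of 7.52 to 10.45 on GSC and 4.97 to 5.51 on gPS arrays, although Tyrobp kept its call only without GSC line 3 or gPS line 1 when 1 line was left out and lost it with only the 6 arrays in the fit, with either median scaling, with no background correction and with no probe filter (limma adjusted p from 0.0562 to 0.118). Of the 4 tested macrophage and blood markers 3 were detected on no gPS array and 0 on all 6, so the filter itself favoured a lower value. Among the 8 on the array that did not pass the filter, Cd14, Fcer1g, C1qa and C1qb were each detected on 1 of the 6 arrays. Ptprc, Itgam, Aif1 and Hba-a1 were detected on none. The part of such cells in these and the other decreases was not tested.

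The remaining marker lists gave mixed counts. Of 7 tested Sertoli, Leydig and peritubular markers 3 rose (Rhox5, Aard and Amhr2), 2 fell (Wt1 and Cldn11) and 2 were not called, and 11 more, such as Amh, Star and Insl3, did not pass the detection filter. Of 3 tested spermatid markers 2 fell (Izumo1 and Ldhc) and Odf2 rose by 1.51, with 11 others, among them Prm1 and Tnp1, below the filter. Of 4 tested endothelial markers 2 rose and 2 were not called (50% called, beside 51.7% over all probes). The 2 that rose were Pecam1 (2.40, or 1.51 without gPS line 1) and Esam (at least 5.32-fold).

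The GSC lines differed among themselves in macrophage-type genes and in pluripotency factors. Lyz1 read 14.16, 13.15 and 11.10 in GSC lines 1, 2 and 3 against 5.17, 6.05 and 7.21 in gPS, Gpnmb, a glycoprotein of macrophages and melanocytes, 12.51, 11.31 and 7.77, Wfdc17 10.61, 8.05 and 6.15 and Adgre1, the F4/80 antigen, 7.86, 6.27 and 4.90. In each of these line 1 was highest and line 3 lowest, the same order as for Pou5f1. Other pluripotency factors varied: Zfp42 and Dppa3 had that order too, Esrrb had the opposite order, and Sox2 was lowest in line 2. Gpnmb was not called without GSC line 1 (-2.69, limma adjusted p = 0.0602), and the fitted Adgre1 change went from -1.74 to -0.98 without it, still called (limma adjusted p = 0.0475), while with only the 6 arrays in the fit Adgre1 was not called (adjusted p = 0.0507). Lpl (9.11, 10.75 and 5.86) and Mmp13 (6.31, 10.04 and 5.63), a lipase and a collagenase, were highest in line 2, and Cela2a, an elastase, in line 3 (5.97, 6.69 and 10.38). None of these 3 genes was called between the groups, but Mmp13 was called without GSC line 3 (-2.86, limma adjusted p = 0.0185) and, just, with median scaling (adjusted p = 0.04997), and Cela2a without GSC line 1 (-2.75, adjusted p = 0.0433).

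Among the gPS lines, the genes of largest range included Rhox genes and targets of signalling. Rhox5 read 12.90, 8.06 and 10.52 and Rhox9 10.96, 7.32 and 9.46 in gPS lines 1, 2 and 3, both above all GSC lines (5.04, 5.13 and 5.76 and 5.40, 6.0 and 5.88). Id1, a BMP target, read 7.11, 11.37 and 9.66 in gPS against 8.0, 8.44 and 8.14 in GSC, so line 1 lay below and lines 2 and 3 above the GSC range. It was not called, and without gPS line 1 its change went from 1.19 to 2.32 and was called (limma adjusted p = 0.000903), while without gPS line 2 it was 0.19 (adjusted p = 0.802). Sp5, a Wnt target, was again lowest in line 1 (6.20, 9.55 and 9.89, against 10.27, 7.93 and 8.18 in GSC), and Cpsf4l was lowest in line 2 (11.84, 8.18 and 10.80). Actg2, a smooth muscle actin, read 6.26, 6.74 and 9.86 and was highest in line 3. Its change of 2.48 was not called without that line (1.36, limma adjusted p = 0.123), without GSC line 1 (2.43, adjusted p = 0.0633), without GSC line 2 (2.37, adjusted p = 0.0688), with no background correction (1.33, adjusted p = 0.0515) or with no probe filter (adjusted p = 0.0696).

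Some transcripts of the GSC lines were detected in a single gPS line. Of 623 probes that were 4-fold or more lower in gPS and detected on all 3 GSC arrays, 286 were detected on no gPS array and 80 on exactly 1. That array was line 1 for 45, line 2 for 15 and line 3 for 20. Over all probes of the array, gPS lines 1, 2 and 3 detected 10247, 9771 and 10156. The part of this difference in sensitivity was not tested. Xlr4a read 9.52, 6.05 and 5.61 in gPS lines 1, 2 and 3, and Ldhc read 8.91, 4.74 and 5.98 against 8.04, 8.04 and 9.65 in GSC, so that in line 1 Ldhc stayed within the GSC range. The Ldhc change of -2.03 was called only narrowly (limma adjusted p = 0.0424) and lost its call without any 1 line except gPS line 1, without which it was -3.22. The call was also lost with only the 6 arrays in the fit, without the ESC arrays, with the authors' deposited values, with no background correction and with no probe filter (limma adjusted p from 0.0535 to 0.118). Whatever the change between the groups, line 1 stood at least 2-fold above both other gPS lines for 284 of 10769 probes and below both for 185. These counts were 126 and 214 for line 2 and 82 and 19 for line 3. Correlations with the GSC arrays were 0.787 to 0.797 for line 1, 0.778 to 0.790 for line 2 and 0.796 to 0.805 for line 3.

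**Figure D5:**
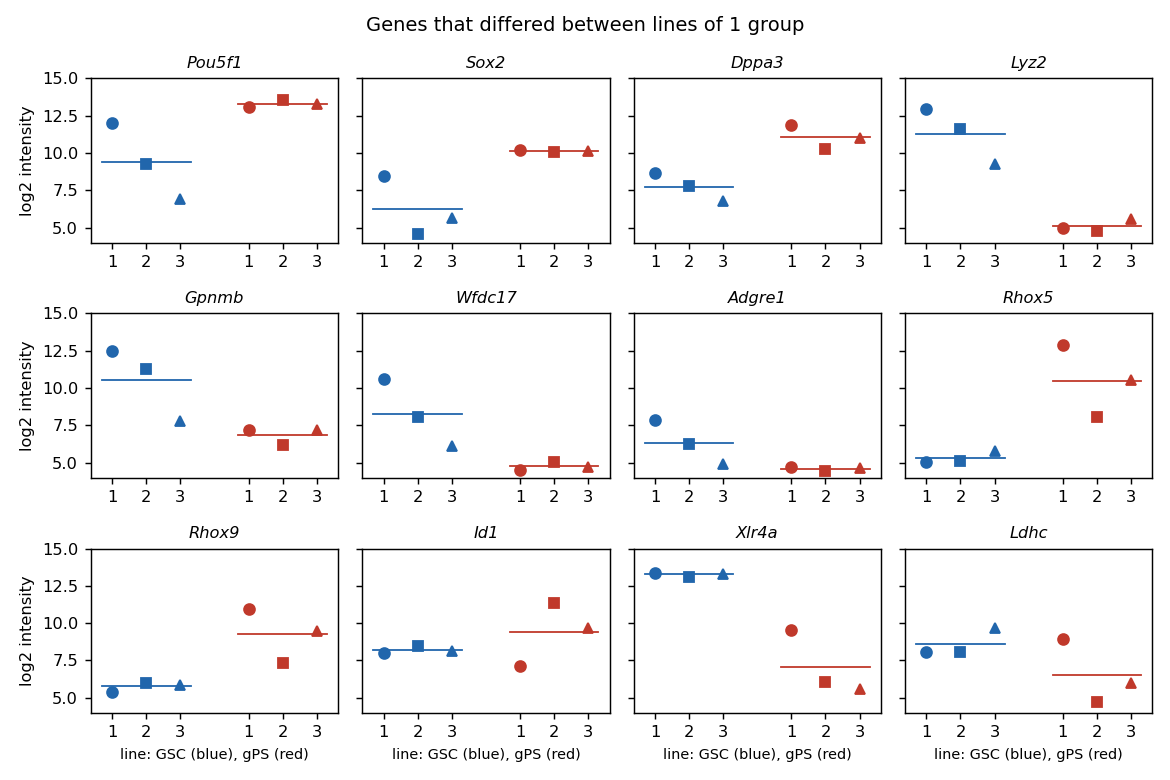
Log2 intensity of 12 genes in GSC OG2 lines 1, 2 and 3 (blue) and gPS OG2 lines 1, 2 and 3 (red), with a bar at each group mean. Pou5f1 and the macrophage-type genes Lyz2, Gpnmb, Wfdc17 and Adgre1 are highest in GSC line 1 and lowest in GSC line 3, and Xlr4a and Ldhc are highest in gPS line 1.

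Whether the same conversion differed in the OG2-ROSA background was tested as the difference of the changes. Limma called 0 of the 12309 probes (593 at an unadjusted p under 0.05). It called 1 without GSC OG2 line 3, gPS OG2 line 1 or gPS OG2-ROSA line 1, and 4 without gPS OG2-ROSA line 3. Of the 576 probes 4-fold or more higher in OG2, 550 were also called higher in OG2-ROSA, and of the 640 lower, 582 were called lower. The backgrounds had no array in common but shared 1 normalization and 1 pooled variance estimate. The share of all 12309 probes called in OG2-ROSA was not counted, so no background share stands beside these counts. The smallest p values for the difference belonged to Igdcc3, Cstdc4, Krt23, Evc and Pid1, none of which changed by more than 1.49 in OG2. Igdcc3, a receptor-like gene, read 5.56, 5.52 and 5.59 in GSC OG2 and 6.76, 7.31 and 7.06 in gPS OG2. Strain and transgene differ together between the backgrounds and cannot be told apart.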

How the data were processed

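Each of 14 mouse RNA samples was run on 1 Illumina Mouse-8 v2 array, per the labels. Probe intensity was deposited on a linear scale with a detection p-value beside it, per the file headers. The deposited series values are the authors' quantile-normalized log2 values (the base was inferred) and served as an alternative. BeadStudio 3.2, RMA and lumi are named in the submitters' processing notes, with no role given.

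The neqc function of limma 3.58.1 (R 4.3.3) corrected background with an offset of 16 and quantile-normalized all 14 arrays on the log2 scale. Group means of 5 groups were fitted (lmFit, eBayes, 9 residual degrees of freedom), with Benjamini-Hochberg adjustment. The number of arrays limits the precision. Of the probes, 23978 had 1 gene symbol, 0 several and 1719 none. The fold bound sets the bright mean against the dim group's detection floor or own value, whichever was higher. The members and lists were chosen with earlier results of these data known. Genes named are the largest changes (12 per direction, 8 detected on all 6 arrays), up to 4 called members per list at the brightest probe, 22 fixed genes, the most line-variable genes and 5 X-linked per direction. Other list members were chosen after their values were seen. Promoters come from RefSeq. The fit was tested on simulated data. The alternatives covered background correction, scaling, probe filter, arrays in the fit, weights, a line block and leaving out each line.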

Additional observations from a re-analysis of the deposited data

How the results depend on the processing

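No alternative turned the direction of a called gene among those recomputed. With no background correction, 2184 probes were called at 2-fold or more, against 4116 as reported. Restricting the test to probes detected on all 6 arrays, which tests fewer probes, gave 4091 calls, 2216 higher and 1875 lower against 2965 and 3393 as reported, so the larger count passed from the lower to the higher side, with 2330 at 2-fold or more and 139 X-linked. The difference between backgrounds gave 1 call with no probe filter and 1 with a detection p under 0.05. Leaving out 1 line at a time gave 5482 to 5770 calls, 2531 to 2693 higher, 2951 to 3077 lower, 3967 to 4098 at 2-fold or more, 198 to 209 X-linked, and 0 to 4 for the difference between backgrounds, 4 without gPS OG2-ROSA line 3. With the line number as a replicate block 6105 probes were called. The same-numbered lines did not deviate together (correlations of -0.03, -0.04 and -0.06). Lines of different numbers did not either (0.003 to 0.05), so these values cannot tell whether the numbers mark pairs. Precision is limited by 3 lines a group and, for probes near background, by the detection floor.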

Other observations

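Some gene groups not described above also contained large changes. Of 22 tested heat shock and chaperone genes 4 rose, 7 fell and 11 were not called (50% called, beside 51.7% over all tested probes). With median scaling over the probes detected on all 14 arrays, 7 rose and 6 fell. The small heat shock protein Hspb1 read 7.14, 6.72 and 7.05 in GSC and 11.34, 11.87 and 11.74 in gPS (change 4.68, limma adjusted p = 1.96e-09), and Hspb8 rose by 2.26. Among those that fell were chaperones known from spermatogenesis in mice, Clgn (8.11, 7.98 and 9.71 in GSC, 6.75, 5.25 and 6.03 in gPS), Hspa2 (9.32, 9.81 and 9.32, 7.36, 7.19 and 7.87), Hspa4l (at least 1.37-fold lower) and Calr3 (at least 1.2-fold lower). Of 26 p53 targets and apoptosis regulators 8 rose, 7 fell and 11 were not called (57.7% called, beside 51.7% over all tested probes). With median scaling 7 rose and 8 fell. Mcl1, which blocks apoptosis, read 9.42, 9.41 and 9.55 in GSC and 11.81, 11.29 and 11.73 in gPS (change 2.15), the death receptor gene Fas was at least 2.87-fold lower, and the pro-apoptotic Bik changed by -2.37. Casp9 was at least 2.39-fold lower, with fitted changes of -1.99 and, without GSC line 3, -0.93, and it was not called with only the 6 arrays in the fit (limma adjusted p = 0.0643) or with only those normalized and in the fit (adjusted p = 0.0593).

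Of 18 tested cholesterol synthesis genes 5 rose, 4 fell and 9 were not called, a share called of 50% beside 51.7% over all tested probes. The isomerase Ebp read 6.82, 6.70 and 6.43 in GSC and 8.98, 10.29 and 10.14 in gPS, Scd1 rose by 1.94, and the regulator Srebf2 changed by -1.62. Of 20 tested lineage regulators 6 rose, 7 fell and 7 were not called (65% called, beside 51.7% over all probes). A further 24 did not pass the detection filter. The homeodomain factors Gbx2 (5.67, 5.93 and 6.44 in GSC, 10.66, 11.86 and 11.91 in gPS) and Otx2 (at least 5.15-fold higher) rose. Zic1, Foxf1 and Hoxb4, transcription factors of neural, mesodermal and axial patterning, were detected on every GSC array and on no gPS array, at least 20.3-fold, 7.67-fold and 5.54-fold lower. Fibroblast markers were lower in gPS as well (15 of 23), and their part in these values was not tested.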
